A study of Mus musculus with 12 samples.

Results

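Cytosolic ribosomal protein genes encode the proteins that surround the ribosomal RNAs in the large (Rpl) and small (Rps) subunits of the ribosome outside mitochondria. Each ribosome takes up its proteins in near-equal numbers, and cells keep their synthesis in step, largely through a pyrimidine-rich 5′ end that these mRNAs share and that the mTOR pathway reads. In the intestine the dividing crypt cells make ribosomes at a high rate, while the absorptive cells of the villus use them for digestive enzymes and transporters. The members were all listed genes named Rpl or Rps with a number, with or without a or x, plus Rplp0, Rplp1, Rplp2 and Rpsa, with 1 gene left out by the rule. This gave 68 of the 17112 listed genes, 39 of the large and 29 of the small subunit. The rule uses gene names alone, and the set was picked with earlier results of these data known. The rule matched 75 protein-coding symbols of the GENCODE annotation, and 7 of these were not analysed here.

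RNA of whole small intestine from C57BL/6 mice was sequenced in 12 libraries, 1 mouse each, in 6 groups of 2. Wild-type mice (WT), Zip4 het mice (HET) and Zip4 KO mice were fed zinc in an amino complex or a hydroxy complex. Zip4, symbol Slc39a4, is the zinc importer at the apical surface of enterocytes. The sample labels give 15 ppm zinc for WT and HET and 40 ppm for KO, so KO genotype and zinc dose cannot be told apart, while the series text gives 15 ppm for every mouse. WT mice were 210 and 218 days old on the amino complex and 237 and 221 days on the hydroxy complex. HET mice were 363 and 141 days old on the amino and 338 and 143 days on the hydroxy complex. KO mice were 198 and 228 days old on the amino and 237 and 240 days on the hydroxy complex. All were labelled male except KO amino replicate 2, labelled female. The labels do not say how the allele was made, and they name no litter or sequencing batch.

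Levels are in CPM, the reads of a gene scaled to a common library total. The smallest steps in each library placed its depth at 26.0 to 38.8 M reads, and 3 reads then equal 0.0773 to 0.115 CPM, taken as the detection limit for counting error only. Slc39a4 measured 188 to 256 CPM in WT, 117 to 267 CPM in HET and 42.0 to 91.6 CPM in KO, with every KO library below every other. Absorptive enterocyte markers summed to 30749 to 61297 CPM, so the defining markers of the labelled tissue were present in every library. Smooth muscle markers summed to 1038 to 7046 CPM and differed within groups. In whole tissue, fewer cells of a type and less RNA per cell cannot be told apart. A gene was tested when it reached 1 CPM in at least 2 of the 12 libraries, which 14001 genes did, among them 56 members, 31 of the large and 25 of the small subunit. Tests used limma on log2(CPM + 1), and a call is a Benjamini-Hochberg adjusted p under 0.05 over all tested genes.

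Sequence bears on these genes in 2 ways, through the shared 5′ end and through the many near-identical copies of ribosomal protein genes in the mouse genome. RefSeq start windows (GRCm38.p6) were matched by symbol for 49 members. The motif was a C at the annotated start followed by 4 bases that are each C or T, read on the gene's own strand. It was found in 12 of the 49 members (24.5%), in 2.90% of 10845 other tested genes and in 3.01% of all 27025 genes in the table. A C followed by 7 such bases anywhere between 15 bases before and 25 bases after the start was found in 24 of the 49 members (49.0%) and in 15.7% of the other tested genes. The windows below hold 10 bases before the annotated start and 20 bases from it on, with the longest pyrimidine run that opens with C in capitals. They were chosen to show long and short runs and the members whose values are described later. They lie at chr14:18270967-18270996 on the minus strand for Rpl15, chr4:86857348-86857377 on the minus strand for Rps6, chr2:180257369-180257398 on the plus strand for Rps21, chr7:45128726-45128755 on the minus strand for Rpl13a and chr10:128549149-128549178 on the minus strand for Rpl41.
Rpl15: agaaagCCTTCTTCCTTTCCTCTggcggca
Rps6: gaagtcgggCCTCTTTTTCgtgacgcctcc
Rps21: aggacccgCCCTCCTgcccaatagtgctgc
Rpl13a: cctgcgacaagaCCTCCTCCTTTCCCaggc
Rpl41: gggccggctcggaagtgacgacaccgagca
Rpl15, Rps6 and Rps21 hold a run across the start itself. In Rpl13a the run begins past the annotated start, and the Rpl41 window holds none of 5 or more bases. A match or its absence describes only these letters at 1 annotated start.

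Copies bear on the levels. In GENCODE M21 (GRCm38), 65 of the 68 members had at least 1 other gene whose transcript matched 80% or more of the coding sequence at 90% identity or more, and 33 had 10 or more such genes. A read from a shared stretch can be assigned to the parent, to the copy or to neither, and the sources used here do not state how such reads were counted. Coding stretches of 50 bases found in no other gene's transcript, called unique below, served as a measure of how far reads can place a member alone. Untranslated ends were left out, and only annotated transcripts were searched. The clearest case is Rpl37, a large subunit protein of the tunnel region, against Rpl37rt, a copy on chromosome 5. Their aligned coding sequences differ at 1 of 291 bases, G249A, counted from the first coding base, with the Rpl37 base first. Bases 198 to 257 are shown with that base in capitals.
Rpl37: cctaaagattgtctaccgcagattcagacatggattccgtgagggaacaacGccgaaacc
Rpl37rt: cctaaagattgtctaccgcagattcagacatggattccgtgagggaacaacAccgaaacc
Rpl37 was listed at a mean of 0.0792 CPM and never passed 0.281 CPM, while Rpl37rt was listed between 71.2 and 193 CPM with a mean of 102 CPM. Rpl31, a protein near the exit of the peptide tunnel, and Rpl31-ps12 on chromosome 16 differ at 4 of 375 bases, and bases 71 to 130 hold C111T and G122A, with the Rpl31 base first.
Rpl31: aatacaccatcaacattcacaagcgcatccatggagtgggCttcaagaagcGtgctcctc
Rpl31-ps12: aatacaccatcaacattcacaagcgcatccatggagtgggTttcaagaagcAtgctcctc
Rpl31 averaged 3.48 CPM and Rpl31-ps12 averaged 8.16 CPM. The low rows of Rpl37 and Rpl31 are therefore uncertain as levels of those genes, and the same holds for every member whose coding sequence is mostly shared.

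The highest member was Rpl8 at 583 ± 195 CPM (SD, n = 12), and the lowest rows lay at or under the detection limit. Rps29 was listed at the added constant in 7 of the 12 libraries, with a mean of 0.0357 CPM. The 5 members with the most reads, among them Rpl8, Rpl4 and Rps3, held 50.5% of the summed CPM of all 68 members. A mean of at least 100 CPM was reached by 15 members, at least 10 CPM by 29, at least 1 CPM by 49 and at least 0.1 CPM by 64. Per kb of transcript, Rpl8 was highest at 685 CPM per kb, and Rps9 at 424, Rps21 at 360.2 and Rpl13a at 359 were also among the high members. Rps29, Rpl37, Rpl11 and Rpl36 had the lowest listed values, with means of up to 0.0867 CPM, and no order is read among them at this depth. Rpl38 came next at 0.637 CPM per kb. Neighbours in the upper order, such as Rps21 and Rpl13a, are closer than the spread between libraries.

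The level per kb went with the share of unique coding sequence. The 4 members with at least 75% unique stretches, among them Rpl8, Rpl4 and Rps3, had a median of 438 CPM per kb. The 12 members with 25 to 75% had a median of 182 CPM per kb, the 28 with 1 to 25% a median of 2.15, and the 24 with under 1% a median of 1.68. Spearman's rho between unique share and level per kb was 0.52 over the 68 members, given as a description, since members share libraries and copies. Rpl13a with 2.50% unique stretches and 359 CPM per kb, and Rpl41 with none and 257 CPM per kb, lay far above other members of their class. Members with 25 to 75% ran from 470 down to 0.725 CPM per kb, and Rplp2, at a mean of 0.699 CPM, was among them. Levels are therefore compared below within a gene across libraries, and the order of genes is not read as the make-up of the ribosome.

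**Figure D1:**
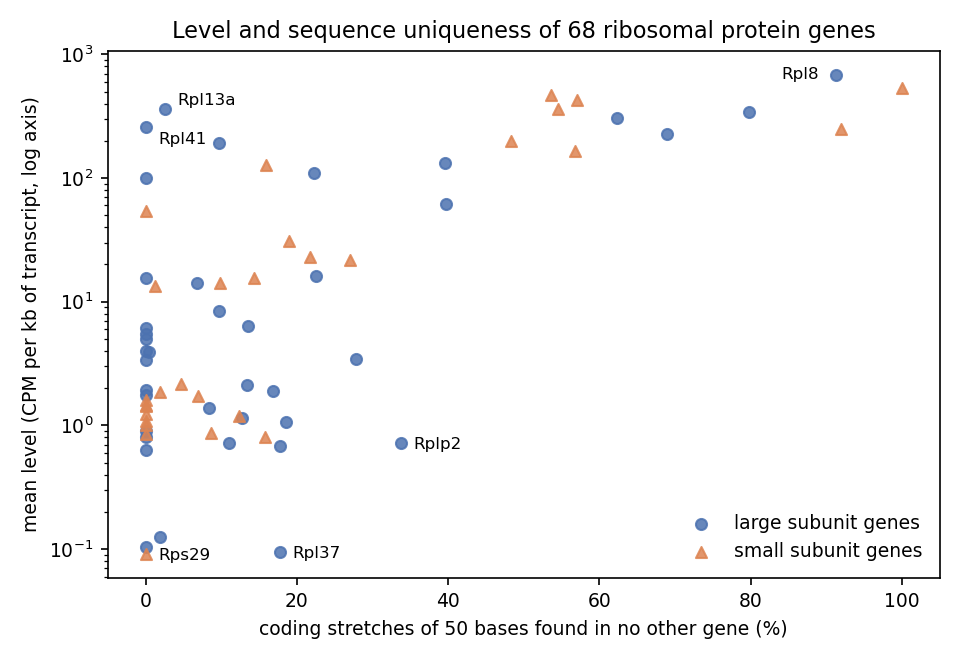
Mean level of each of the 68 members in CPM per kb of transcript (log axis) against the share of its coding 50-base stretches found in no other gene, with large subunit genes as circles and small subunit genes as triangles. The 4 members above 75% all lie above 250 CPM per kb. Members with 25 to 75% spread from 470 down to 0.725 CPM per kb. Members under 25% spread from 359 CPM per kb down to rows at or under the detection limit.

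The whole set took 0.299 to 0.962% of the reads of a library. Summed members measured 3117 and 4456 CPM on the amino and 4564 and 4716 CPM on the hydroxy complex in WT. In HET they measured 4598 and 2994 CPM on the amino and 5054 and 3681 CPM on the hydroxy complex. In KO they measured 4267 and 3604 CPM on the amino and 5597 and 9617 CPM on the hydroxy complex. KO hydroxy replicate 2 stood above every other library, and KO hydroxy replicate 1 was the next highest. WT amino replicate 1 and HET amino replicate 2 were lowest, and the amino and hydroxy values overlapped in HET and did not in WT or KO. HET mice of like age were higher on the hydroxy complex in both age classes, 5054 against 4598 CPM at 338 and 363 days and 3681 against 2994 CPM at 143 and 141 days. The large subunit sum was 1.09 to 1.16 times the small subunit sum in all 12 libraries, so both subunits took part in the differences between libraries to a similar degree.

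**Figure D2:**
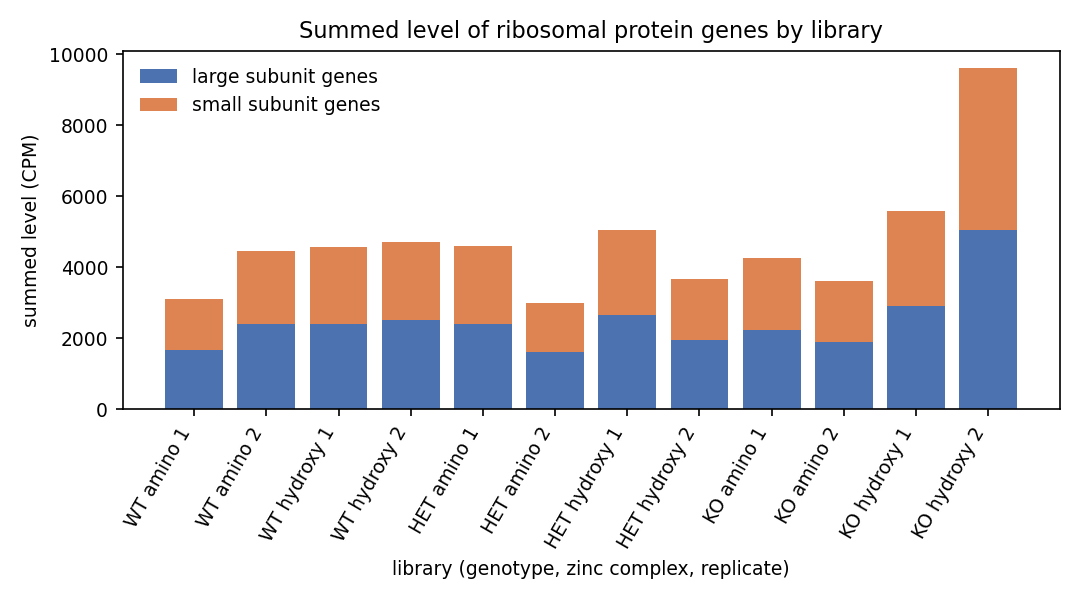
Summed CPM of the 39 large subunit genes (lower bars) and the 29 small subunit genes (upper bars) in each library. KO hydroxy replicate 2 reaches 9617 CPM and HET amino replicate 2 is lowest at 2994 CPM, and the ratio of the 2 parts stays within 1.09 to 1.16.

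The members moved together from library to library. Over the 56 tested members the median SD of a gene across the 12 libraries was 0.44 on the log2(CPM + 1) scale, and it was 0.23 after the median member of each library was subtracted. For 50 of the 56 the second SD was the smaller. The subtracted median came from these same members, so part of this drop is built in, and no like figure is given for other genes. KO hydroxy replicate 2 held the highest value of 48 tested members (85.7%), against 26.4% of all tested genes, and all 56 were above their own median there. WT amino replicate 1 held the lowest value of 23 members (41.1%), against 14.5% of all tested genes, and HET amino replicate 2 also held 23, against 23.0%. Rpl8, a protein close to the catalytic centre, followed the library median most closely, with a remaining SD of 0.06, and Rpl15 followed with 0.08.

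Several members departed from the common course, and these are described as values with no test. Rps26, which lines the mRNA exit channel, had the largest remaining SD, 0.91. It measured 34.4 and 0.828 CPM in the HET amino libraries, and 7.18 to 33.0 CPM in the other 10. Rpl41, a very short basic peptide of the large subunit, measured 28.9 CPM in HET amino replicate 2 and 103 to 351 CPM elsewhere. Rpl29, a large subunit protein also known to bind heparin, took separate ranges, with 54.8, 63.1, 69.5, 77.0 and 84.2 CPM in 5 libraries and 141 to 290.4 CPM in the other 7. The lower range held libraries of all 3 genotypes, most of them on the amino complex. They were WT amino replicate 1, KO amino replicate 2, both HET amino libraries and HET hydroxy replicate 2. Rps15a, part of the small subunit body, was highest in HET amino replicate 1 at 9.50 CPM and HET hydroxy replicate 1 at 8.03 CPM, the 363 and 338 day old mice, and measured 2.37 to 5.15 CPM in the other 10 libraries. Rpl29 and Rpl41 have few or no unique stretches (9.74% and 0%), and Rps26 has 27.0%. Rps15a averaged 4.14 CPM, below its copy Rps15a-ps6, which averaged 6.58 CPM at 98.7% identity, so its row is uncertain too.

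**Figure D3:**
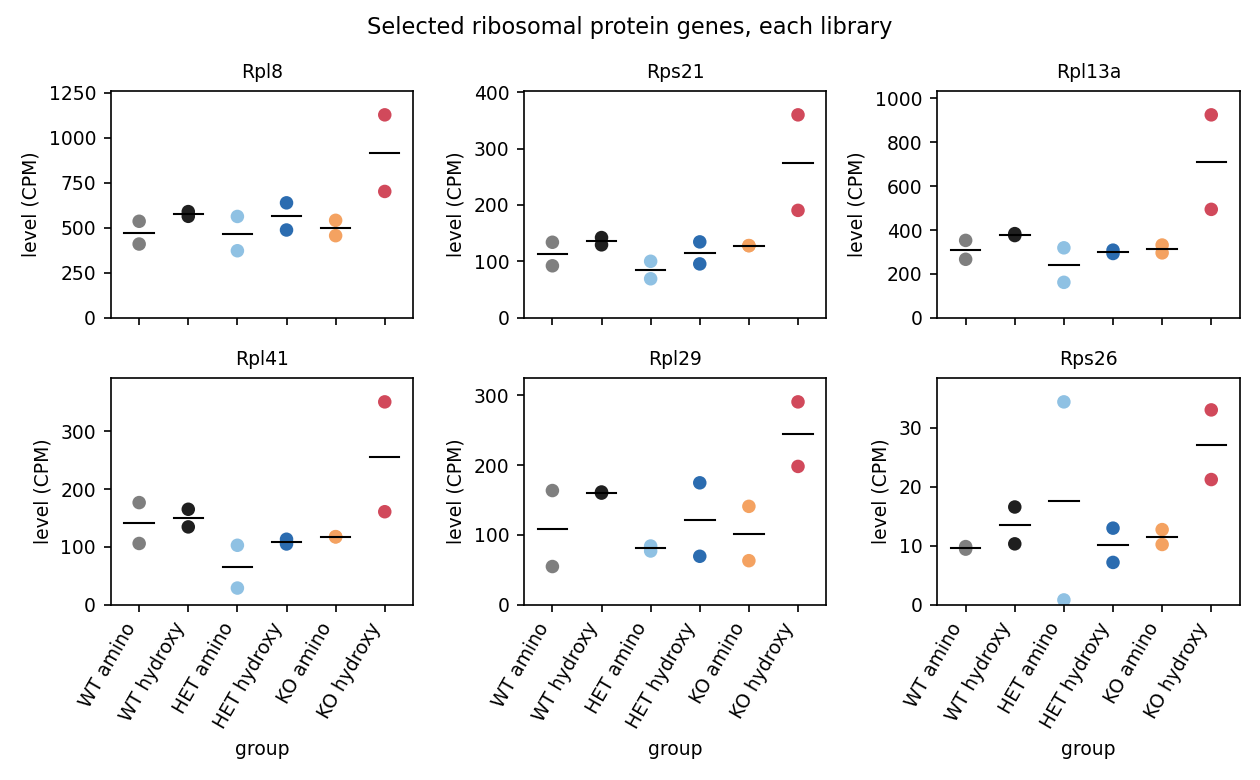
CPM of 6 members in each library by group, with points for the 2 libraries and a line for their mean. Rpl8, Rps21 and Rpl13a are highest in both KO hydroxy libraries, Rpl41 and Rps26 are lowest in HET amino replicate 2, and Rpl29 lies below 85 CPM in 5 libraries and above 140 CPM in 7.

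The hydroxy against the amino complex within KO gave the largest differences. The median log2 change of the tested members was 0.79, 0.76 for the large and 0.80 for the small subunit, against 0.07 over all tested genes. The change was above 0 for 53 of 56 members, as it was for 56.1% of all tested genes. In 44 of the 56 (78.6%) both KO hydroxy libraries lay above both KO amino libraries, against 28.8% of all tested genes. limma called 0 of the 56 members and 0% of all tested genes at an adjusted p under 0.05, and the unadjusted p was under 0.05 for 20 members, all higher. That held for 13.7% of all tested genes in either direction and 9.73% higher. Without KO hydroxy replicate 2 the median was 0.37, and without KO hydroxy replicate 1 it was 1.19. KO amino replicate 2, the only mouse labelled female, is in this comparison, and the part of sex was not tested.

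Among the members with the largest changes in KO, Rps2, a protein at the mRNA entry channel, measured 117 and 86.6 CPM on the amino and 171 and 289 CPM on the hydroxy complex. Its log2 change was 1.13 (SE 0.36, limma adjusted p = 0.304). Rpl13a, known for a role in silencing inflammatory transcripts outside the ribosome, measured 332 and 296 CPM against 494 and 925 CPM, a log2 change of 1.11 (SE 0.36, limma adjusted p = 0.304). Rpl29 had the largest change at 1.34 (SE 0.57, limma adjusted p = 0.347), with 141 and 63.1 CPM against 198 and 290.4 CPM. In these 3 genes the groups did not overlap, and none passed the threshold. The Rpl29 change was 0.76 without KO amino replicate 2, the Rpl13a change 0.66 without KO hydroxy replicate 2 and the Rps2 change 0.76 without KO hydroxy replicate 2. Rpl8, with 542 and 457 CPM against 702 and 1128 CPM, did not overlap either. Toward the other end Rpl10 and Rpl26 had log2 changes of -0.05 and -0.03. Rpl10 completes the large subunit late in the cytoplasm, and measured 4.94 and 2.57 CPM on the amino and 2.58 and 4.55 CPM on the hydroxy complex, which overlap.

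In WT the hydroxy complex went with smaller differences, a median log2 change of 0.28 against 0.10 over all tested genes. The change was above 0 for 53 of 56 members and for 69.6% of all tested genes. Under quantile scaling it was above 0 for 44 members, with a median 0.19 above that of all genes. Here 17 members were higher in both hydroxy libraries than in both amino ones (30.4%, against 19.6% of all tested genes). The median was 0.02 without WT amino replicate 1 and was 0.52 without WT amino replicate 2. In HET the median was 0.17 against 0.01, with 40 of 56 members above 0 (51.3% of all tested genes) and 7 members not overlapping and higher (12.5%, against 13.3%). It was -0.15 without HET amino replicate 2, -0.02 without HET hydroxy replicate 1, 0.46 without HET amino replicate 1 and 0.34 without HET hydroxy replicate 2. limma called 0 members in WT and 0 in HET, as 0% of all tested genes, with 0 and 1 members at an unadjusted p under 0.05 (1.03% and 2.68% of all tested genes, in HET 2.34% higher). That member was Rps15, a small subunit protein near the decoding site, at 61.4 and 37.9 CPM on the amino and 94.5 and 67.4 CPM on the hydroxy complex.

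Averaged over the 3 genotypes, the hydroxy complex gave a median log2 change of 0.39 in members and 0.07 in all tested genes, with 53 of 56 above 0 (62.8% of all tested genes). limma called 0 members and 0% of all tested genes, and 16 members had an unadjusted p under 0.05, all higher, against 8.96% of all tested genes in either direction and 6.93% higher. The median was 0.24 without KO hydroxy replicate 2. The difference of the complex effect between KO and WT was itself tested. Its median over the members was 0.51 against -0.04 over all tested genes, with 52 of 56 above 0 (47.1%), and limma called 0 members, 0% of all tested genes and 0 members even at an unadjusted p under 0.05 (3.79% of all tested genes). That median was 0.069 without KO hydroxy replicate 2, 0.87 without KO hydroxy replicate 1 and 0.25 without WT amino replicate 2. The same difference between HET and WT had a median of -0.10, with 23 of 56 above 0 (41.1%), 0 calls (0% of all tested genes) and 0 unadjusted p under 0.05 among the members (1.59% of all tested genes). Its sign turned without WT amino replicate 1, HET amino replicate 1 or HET hydroxy replicate 2, and it was -0.44 without HET amino replicate 2.

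Between genotypes, over both complexes, KO against WT gave a median log2 change of 0.29 in members and 0.02 in all tested genes, with 55 of 56 above 0 (52.5%). limma called 0 members and 0.0286% of all tested genes, and 3 members had an unadjusted p under 0.05, all higher (9.79% of all tested genes, 6.8% higher). The largest was Rpl31, at 1.84, 1.64, 1.99 and 2.54 CPM in WT and 3.28, 3.12, 3.97 and 9.58 CPM in KO. It was the 1 member whose KO and WT libraries did not overlap (1.79%, against 2.92% of all tested genes), with a log2 change of 0.89 (SE 0.27, limma adjusted p = 0.357), and reads may be shared with its copies. Rps2 followed with 0.71 (SE 0.25, limma adjusted p = 0.422). The median over the members was 0.11 without KO hydroxy replicate 2, 0.47 without KO hydroxy replicate 1 and 0.16 without WT amino replicate 1.

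HET against WT gave a median of -0.04 in members and 0.08 in all tested genes, with 24 of 56 above 0 (59.8%), or 17 with TMM scaling. The median was -0.19 without WT amino replicate 1 or HET amino replicate 1, 0.05 without WT amino replicate 2 or HET hydroxy replicate 2 and 0.08 without HET amino replicate 2. limma called 0 members and 0% of all tested genes, and 2 members had an unadjusted p under 0.05, both lower, against 15.3% of all tested genes in either direction and 5.76% lower. These were Rpl41, with a log2 change of -0.88 (SE 0.38, limma adjusted p = 0.316), and Rpl34, a large subunit protein, with -0.56 (SE 0.23, limma adjusted p = 0.294). Their HET and WT libraries overlapped. The Rpl41 change was -0.43 without HET amino replicate 2 and -1.32 without HET amino replicate 1.

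KO against HET gave a median of 0.36 in members and -0.07 in all tested genes, with 51 of 56 above 0 (43.8%). limma called 1 member of 56 (1.79%), against 6.84% of all tested genes, and 9 had an unadjusted p under 0.05, all higher (27.5%, 13.3% higher). The median was 0.15 without KO hydroxy replicate 2, 0.56 without KO hydroxy replicate 1 and 0.20 without HET amino replicate 2. The called member was Rps21 on chromosome 2, a short protein of the small subunit with 54.5% unique stretches. It measured 100.2, 69.2, 135 and 95.5 CPM in HET and 128, 128, 190.5 and 359.8 CPM in KO, so the groups overlapped at HET hydroxy replicate 1. Its log2 change was 0.91 (SE 0.23, limma adjusted p = 0.0479). The call was lost without each library in turn except HET amino replicate 1, with adjusted p between 0.0518 and 0.142 in the other 11. Rpl41 had a larger change of 1.10 (SE 0.38, limma adjusted p = 0.0988) and did not overlap, with 28.9 to 113 CPM in HET and 117 to 351 CPM in KO. Rplp2 was the other of the 2 members without overlap (3.57%, against 6.21% of all tested genes), at 0.123 to 0.696 CPM in HET and 0.819 to 1.25 CPM in KO. It reached 1 CPM in only 3 libraries, none of them HET, so it passed the filter through groups where it was higher. Its lowest HET value lay near the detection limit, and no difference is read from this row. Rpl13a and Rps24, which sits in the small subunit body, had log2 changes of 0.81 (limma adjusted p = 0.0794) and 0.90 (limma adjusted p = 0.138). Without HET amino replicate 2 the change was 0.65 for Rpl41 and 0.46 for Rps24. Without HET amino replicate 1 it was 1.55 and 1.33. HET and KO also differ in labelled zinc dose, which cannot be told apart from genotype. The HET ages lie on both sides of the KO ages, and 4 members were called with age as a covariate and 3 with the HET libraries paired by age. The share of all tested genes called in those fits is not reported here, so these counts are not read as a result about the members.

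**Figure D4:**
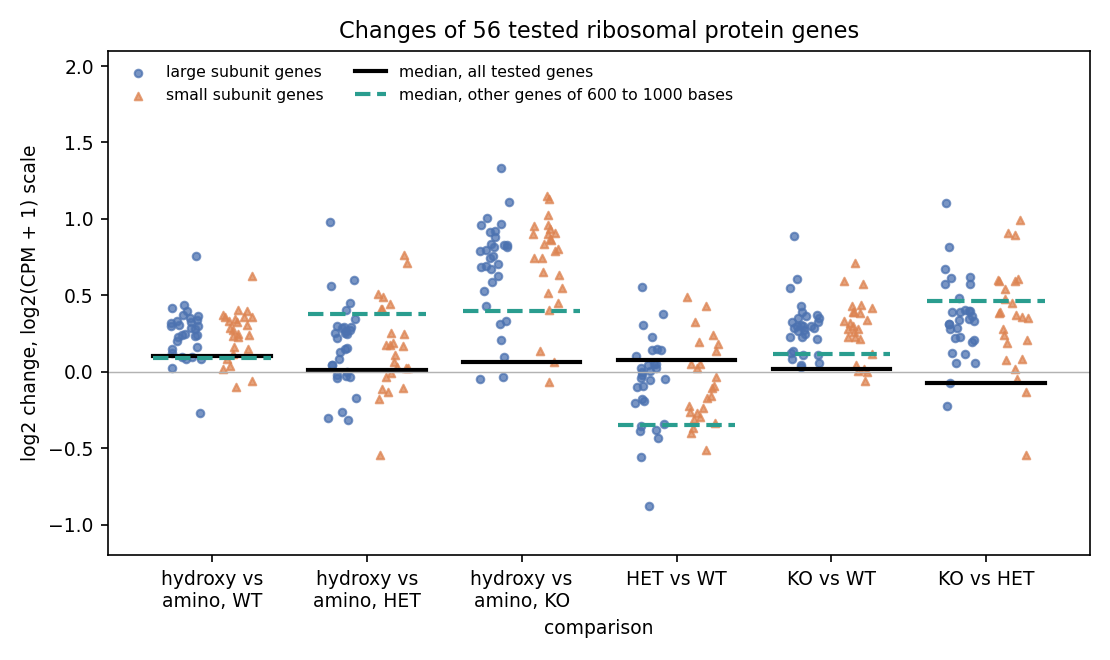
log2 change of each of the 56 tested members in 6 comparisons, large subunit as circles and small subunit as triangles, with the median of all tested genes (black line) and of other genes with transcripts of 600 to 1000 bases (dashed line). The member median is 0.79 for the hydroxy complex in KO, above both lines, and lies between the lines in HET against WT and in KO against HET.

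Short transcripts of other genes moved in part with the members. Members had a median transcript of 768 bases. Among tested genes that are no members, the 624 with transcripts of 600 to 1000 bases had a median log2 change of 0.40 for the hydroxy complex in KO, and the 4029 of 4000 bases or more had -0.17. In KO against HET the same classes had 0.46 and -0.36, and in HET against WT -0.35 and 0.28. For the complex in HET they had 0.38 and -0.15, where the members had 0.17, and for the difference of the complex effect between KO and WT 0.31 and -0.28, where the members had 0.51. In WT the complex gave 0.09 and 0.11. The library medians of 787 other genes under 1000 bases, centred on each gene's mean, were -0.74 in HET amino replicate 2, 0.21 in KO hydroxy replicate 1 and 0.55 in KO hydroxy replicate 2, where the members had -0.48, 0.21 and 1.01. In WT amino replicate 1 the members had -0.45 and the other short genes -0.03. The part of transcript length in the members' differences was not tested.

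**Figure D5:**
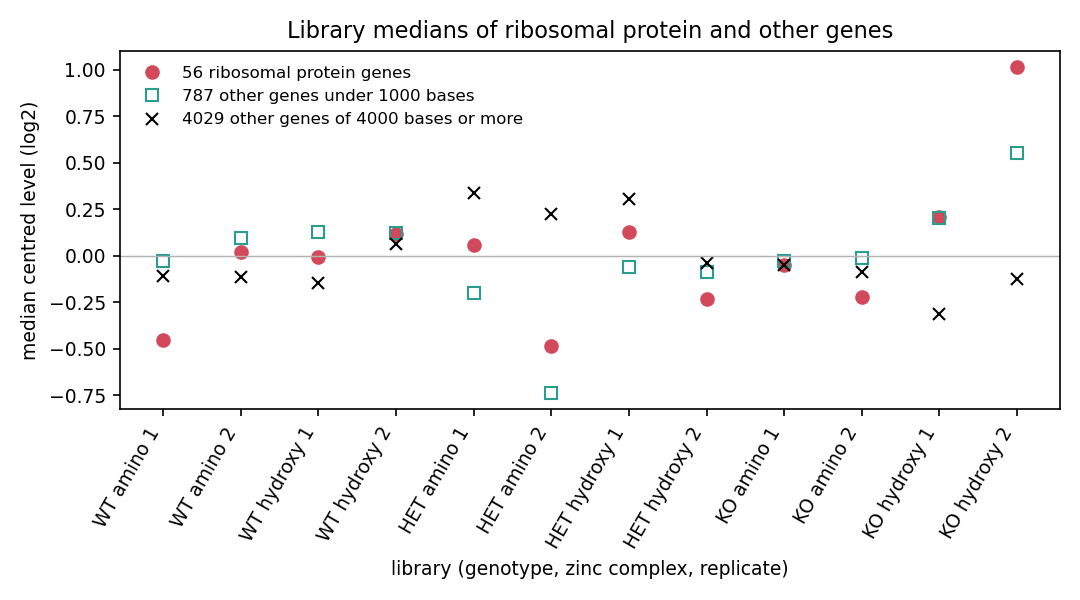
Median centred log2 level per library of the 56 tested members (filled circles), of 787 other genes with transcripts under 1000 bases (squares) and of 4029 with 4000 bases or more (crosses). Members and short genes are both low in HET amino replicate 2 and high in KO hydroxy replicate 2, while in WT amino replicate 1 the members are low at -0.45 and the short genes are at -0.03.

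Nuclear RNA markers ran the other way. The 5 nuclear-retained RNAs summed to 277 and 289.9 CPM in KO hydroxy, against 845 and 1042 CPM in KO amino and 409.5 to 1833 CPM in WT and HET. Their median log2 change was -1.37 for the hydroxy complex in KO, with 0 of 5 called, and -1.33 in KO against HET, with 2 of 5 called lower, against 3.4% of all tested genes, and 0 to 2 when 1 library was left out. Malat1, a long RNA kept in the nucleus, was one of these, with 39.5 and 55.6 CPM in KO hydroxy and 98.5 to 1174 CPM in the other 10 libraries. Their part in the members' differences was not tested.

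By role, the stalk proteins that recruit elongation factors were listed at unlike levels. Rplp0, the stalk base, averaged 83.5 ± 25.4 CPM (SD, n = 12), from 49.5 CPM in WT amino replicate 1 to 148 CPM in KO hydroxy replicate 2. Rplp1 averaged 65.8 ± 35.4 CPM, from 30.8 to 171 CPM. Rplp2, its partner, averaged 0.699 CPM. The row Rplp2-ps1 averaged 344 CPM and ranged from 138 CPM in HET amino replicate 2 to 908 CPM in KO hydroxy replicate 2. Rplp2 lies in the class with 25 to 75% unique stretches, and Rplp2-ps1 was not among the copies found for it. Rps23, which contacts the decoding site, averaged 1.38 CPM and its copy Gm5148 averaged 185 CPM, and Rpl14 averaged 112 CPM beside 185 CPM for Rpl14-ps1. The rows Rplp2-ps1, Gm5148 and Rpl37rt were each highest in KO hydroxy replicate 2, as most members and 26.4% of all tested genes were. Not all copies were. Rps15a-ps4, at 3.07 CPM, and Wdr89, which holds a copy of Rplp2, at 2.42 CPM, were highest in HET amino replicate 2.

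Rps6, the small subunit protein phosphorylated by S6 kinase downstream of mTOR, averaged 47.1 CPM, with 25.1 CPM in HET amino replicate 2 and 119.5 CPM in KO hydroxy replicate 2. The 10 others lay between 32.2 and 52.7 CPM. Rpl5 and Rpl11, which with the 5S RNA hold back Mdm2 when ribosome assembly fails, were listed at 3.91 to 15.7 CPM and at up to 0.307 CPM. Rpl11 was listed at the added constant in 4 libraries, has no unique stretch, and was not tested because it never reached 1 CPM. Rpl22, which also regulates splicing and T cell development, averaged 108 ± 38.3 CPM, with 69.0% of its stretches unique. Rps19, mutated in Diamond-Blackfan anaemia in people, ranged from 11.7 to 54.3 CPM, and Rpsa, the laminin receptor precursor, from 11.6 to 46.9 CPM. Rps27a, a ubiquitin fusion, averaged 0.915 CPM.

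Rps18, a common reference gene in expression assays, averaged 0.672 CPM, and Rps4x, the X-linked form of its protein, averaged 13.9 CPM. Rpl39, a short protein of the exit tunnel, averaged 1.31 CPM. Rpl38, needed in mice for translation of Hox mRNAs, averaged 0.232 CPM, Rps28 averaged 0.473 CPM and neither was tested. In all, 12 members failed the filter, with means from 0.0357 to 0.626 CPM. Just outside it lay Rpl17, Rpl27, Rpl37a, Rps27 and Rps28, with 1 library at 1 CPM or more, and just inside lay members such as Rpl26, Rps13 and Rps18, with 2. With no filter the median over all 68 members was 0.70 for the hydroxy complex in KO.

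Splits of the tested members gave the same direction in KO. The 29 members of at least 10 CPM had a median log2 change of 0.90 for the hydroxy complex, all 29 above 0, and the 27 below had 0.53, with 24 above 0. The 16 members with at least 25% unique stretches had a median of 0.84, all above 0, and the other 40 had 0.74, with 37 above 0.

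Other genes of translation were taken from lists chosen with earlier results of these data known. For the hydroxy complex in KO, 22 translation factor genes had a median log2 change of 0.70 (21 above 0), 40 ribosome assembly genes 0.85 (40 above 0) and 77 mitochondrial ribosomal protein genes 0.70 (77 above 0), with 0 called by limma in each. Of these, 13, 30 and 53 had an unadjusted p under 0.05, against 13.7% of all tested genes, and 56.1% of all tested genes were above 0. Nhp2, a box H/ACA ribonucleoprotein, had 1.43 (SE 0.36) and Nop16 had 1.17 (SE 0.32), both with a limma adjusted p of 0.300, and the Nhp2 change was 0.95 without KO hydroxy replicate 2. In KO against HET, 17 of the 77 mitochondrial ribosomal protein genes were called, all higher, against 3.44% of all tested genes called higher, with a median of 0.56 and 76 above 0 (43.8% of all tested genes). The count was 30 without HET amino replicate 1 and at most 7 without each of the other 11 libraries in turn, with 0 without HET amino replicate 2, HET hydroxy replicate 1, either KO amino library or KO hydroxy replicate 2. Mrpl41 rose by 1.09 (SE 0.20, limma adjusted p = 0.0233), and its call was lost without any 1 of those 5 libraries, with adjusted p between 0.0541 and 0.0978. These are nuclear genes, and their transcript lengths are not reported here. The 624 tested genes outside the members with transcripts of 600 to 1000 bases had a median of 0.46 in that comparison. The part of transcript length in these calls was not tested.

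The 8 tested ribosomal protein genes outside the naming rule had a median log2 change of 0.63 for the hydroxy complex in KO, with 7 above 0 and 0 called. In KO against HET, 1 of the 8 was called, Rps27l, a p53-inducible relative of Rps27. It measured 44.4, 44.0, 58.7 and 67.3 CPM in HET and 84.3, 74.0, 138 and 141 CPM in KO, which did not overlap, and rose by 0.98 (SE 0.14, limma adjusted p = 0.0157). That call was lost without HET hydroxy replicate 1 or either KO amino library, with adjusted p between 0.0626 and 0.0748. Fau, a ubiquitin-like fusion to a ribosomal protein, in KO against HET had a log2 change of 0.75 (limma adjusted p = 0.0534). The 14 tested regulators of ribosome production and mTOR signalling had a median of 0.09 for the hydroxy complex in KO, with 8 above 0 and 0 called.

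Markers of cell states and other cell types differed between the same libraries, in both directions. For the hydroxy complex in KO, 20 proliferation genes had a median log2 change of 0.94, all 20 above 0 and 0 called, and their sum was 648 and 1161 CPM in KO hydroxy against 569 and 378 CPM in KO amino. Enterocyte markers had a median of -0.61 with 4 of 16 above 0, and 10 B and plasma cell genes had 1.42 with all 10 above 0, with 0 called in either list. The medians of fibroblast, T cell, smooth muscle, macrophage and endothelial genes were -0.50, -0.44, -0.30, -0.27 and -0.26. In other comparisons the lists went with the members or took another course. In KO against WT the proliferation genes had a median of 0.61 with 20 of 20 above 0. The B and plasma cell genes had 0.34 with 8 of 10 above 0. The members had 0.29 there, 52.5% of all tested genes were above 0, and 0 genes of either list were called. For the complex in WT the B and plasma cell genes had -0.39 with 0 of 10 above 0, where the members had 0.28, and in HET against WT the proliferation genes had 0.41 with 19 of 20 above 0, where the members had -0.04. In KO against HET, 4 of 8 fibroblast genes, 3 of 8 macrophage genes and 1 of 7 endothelial genes were called lower, against 3.4% of all tested genes, with medians of -1.17, -0.70 and -0.66. Lgr5, 1 of 8 stem cell genes, and Cd4, 1 of 10 T cell genes, were also called lower, at -1.74 and -1.19. Pcna, 1 of 20 proliferation genes, and Cela1, 1 of 2 pancreas genes, were called higher, at 0.73 and 1.24, against 3.44% of all tested genes. For these single calls and the endothelial call, values with 1 library left out are not reported here. The fibroblast count was 0 to 5 and the macrophage count 0 to 3 when 1 library was left out. The part of these cells in the members' differences was not tested.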

How the data were processed

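Per the submitters' processing notes, reads were aligned with TopHat2 to mm10 and handled in Partek; aligner settings, strand and the counting of multi-mapped reads were not stated there. The authors deposited 1 table of CPM per gene for 12 libraries, with 0.0001 added to every value. Listed genes hold 62.0 to 71.8% of each library's CPM. Depth was read from the value steps, and 92.9 to 94.4% of values lay within 0.05 of a whole read, too few to recover counts. limma 3.58.1 (R 4.3.3) was run on log2(CPM + 1) with 6 group means, empirical Bayes with trend, two-sided, 6 residual and 3.61 prior degrees of freedom. A fold on this scale understates the change of low genes. The filter was 1 CPM in 2 libraries. With 2 mice a group, p-values rest on the spread pooled over groups. The script was tested on simulated data. Copies were found with BLAST 2.17.0 in GENCODE M21 transcripts. Transcript length is that of the principal transcript. Promoter windows came from RefSeq, GRCm38.p6, and 19 members had no row there.

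The members and lists were chosen with earlier results of these data known. Named genes were those with set roles, the largest and smallest changes and highest and lowest levels, and every call. Alternatives covered the pseudocount, filter, scaling, weights, age, HET libraries paired by age and each library left out. No protein sequences were used here, and values of some single members are not reported here.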

Additional observations from a re-analysis of the deposited data

How the results depend on the processing

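No paired analysis was possible because the labels carry no replicate numbers, except that HET mice can be matched by age. A term that pairs the HET libraries by age, chosen after seeing the data, left every member median as it was and gave 3 calls in KO against HET. The direction of the member median held in KO hydroxy against amino and in KO against WT and HET under pseudocounts of 5 and 0.1, no filter, a mean of at least 5 CPM, quantile, TMM and listed-total scaling, array weights and an age covariate. Scaling moved the median of all genes by at most -0.11, in WT under quantile scaling. The medians rest on single libraries. For the hydroxy complex in KO the median ran from 0.37 to 1.19 when 1 library was left out, for the KO minus WT difference from 0.069 to 0.87, for HET minus WT from -0.44 to 0.17, for WT from 0.02 to 0.52 and for HET from -0.15 to 0.46. HET against WT ran from -0.19 to 0.08. Without KO hydroxy replicate 2 and HET amino replicate 2 together, chosen after seeing the data, the medians were 0.37 in KO, 0.069 for KO minus WT, -0.44 for HET minus WT and 0.022 for KO against HET. In KO against HET the 1 call became 0 with no filter, listed-total scaling, array weights, only the groups compared and the 2 libraries removed. It became 4 with quantile scaling, TMM or age, 3 without both HET mice over 300 days, and 0 to 7 when 1 library was left out. The cause was not tested. In KO against HET limma called 957 of all tested genes in the main fit and 620 with listed-total scaling. It called 1651 with quantile scaling and 1450 with TMM, so calls over all genes moved in the same direction as the member counts. For the other settings the count over all tested genes is not reported here. These changes in the member count are therefore not read as a result about the members. Members with few unique stretches and levels near 3 reads limit what single rows show.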
